A study of Mus musculus with 27 samples.

Results

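CD8 T cells of lin28Tg mice were compared with those of WT mice after 12 h of activation, a stage at which stimulated T cells grow in size ahead of division. The comparison rests on 6 of the 27 libraries of the series, 3 lin28Tg and 3 WT libraries chosen by their labels alone. Both groups were P14 cells, whose transgenic T cell receptor recognises gp33, a peptide of LCMV, taken from lymph nodes of Rag2-/- mice of both sexes, 6 to 10 weeks old. Cells of both groups were stimulated with anti-CD3 at 2 μg/ml and anti-CD28 at 5 μg/ml in medium holding doxycycline at 2 μg/ml, the drug that switches on the let-7g transgene of the third genotype, let-7Tg. Mice of the study, controls included, generally received doxycycline in their drinking water beforehand. The lin28Tg mice, Lin28bTg in the labels, carried a Lin28 transgene whose promoter is not given in the sources used here. The labels do not say how many mice a library holds, so p-values measure the spread between these libraries, which the study describes as biological replicates.

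Let-7 miRNAs are short RNAs that pair through their seed, the bases at positions 2 to 8, with matching sites in the 3′ UTRs of mRNAs and lower the amount or translation of those mRNAs. Lin28 proteins bind let-7 precursors and block their maturation, so that the genes let-7 holds down are released. In naive CD8 T cells let-7 is abundant and falls after T cell receptor stimulation, and it is known as a brake on cell cycle entry and on effector differentiation. Mature let-7 was not measured in these libraries, which hold long RNA counted per gene.

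The let-7 sequences are shown because the seed defines what the family can pair with. RefSeq on GRCm38 held 11 mouse entries of the family, of which 10 shared one seed. The seed is in capitals.
mmu-let-7a-5p: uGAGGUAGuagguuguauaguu
mmu-let-7g-5p: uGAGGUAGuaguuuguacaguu
mmu-let-7i-5p: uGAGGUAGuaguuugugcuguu
mmu-miR-98-5p: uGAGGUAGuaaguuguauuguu
mmu-let-7j: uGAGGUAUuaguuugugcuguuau
The first is encoded at chr13:48538239-48538260, let-7g, the member used as transgene in let-7Tg mice, at chr9:106178846-106178867, and miR-98 on chromosome X at chrX:151913229-151913250. The mmu-let-7j entry differed from the rest in its seed.

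A perfect 8mer site is the reverse complement of the seed followed by an A, CTACCTCA. The sites below stand in the 3′ UTRs of 9 genes, known let-7 targets or targets that the study predicted on these samples. Sites were taken from such genes that were higher in lin28Tg cells and held this match, among those of lowest adjusted p. Each is printed 5′ to 3′ on the strand of the mRNA, on GRCm38, with the 8mer in capitals and the 16 bases before it, with which the rest of the miRNA may pair.
Cdc34, chr10:79688111-79688134, plus strand: ggcctcaggcgacagaCTACCTCA
Arid3a, chr10:79953894-79953917, plus strand: caaggcaagtttctttCTACCTCA
Rrm2, chr12:24713346-24713369, plus strand: ctaaaaagctgtgtagCTACCTCA
Bcl2l1, chr2:152781191-152781214, minus strand: aaccccaggggcttccCTACCTCA
Hmga2, chr10:120364224-120364247, minus strand: cgccgacattcaatttCTACCTCA
Tgfbr1, chr4:47410827-47410850, plus strand: taggaggctggttgttCTACCTCA
Nr6a1, chr2:38727449-38727472, minus strand: atgttgacaaagacaaCTACCTCA
Tnfrsf1b, chr4:145215010-145215033, minus strand: agccacctgtctcttcCTACCTCA
Golt1b, chr6:142403080-142403103, plus strand: cgataagtggagaatcCTACCTCA
Hmga2 held 7 seed matches of any kind in its 3′ UTR and Nr6a1 held 8, of which 3 were 8mers. Arid3a held 4 matches, Cdc34 and Tgfbr1 held 2 each, and the other 4 genes held 1 each.

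Libraries held 14102910 to 16761374 counted reads in WT cells and 15757155 to 17149842 in lin28Tg cells. At this depth 10 reads on a gene of 2 kb stand for 0.2915 to 0.3545 FPKM, the deposited unit, which is fragments per kilobase of gene and relative to all fragments counted for the library. All 11 markers of CD8 T cells were above 1 FPKM in both groups, with a sum of 3970 to 4340 FPKM in WT and 2960 to 3600 FPKM in lin28Tg libraries. Of these markers 4 were called lower and 1 higher. Over all genes tested 2.39% were called lower and 6.1% higher, the background for each count of markers here. B cell markers summed to 88.4 to 106.0 FPKM in WT and 83.8 to 108.0 FPKM in lin28Tg libraries, nearly all of it Ighm (86.5 to 104.0 and 80.9 to 104.5 FPKM), with Ms4a1 at 0 in all 6 libraries. Of 3 tested B cell markers 1 was called higher, Cd79b (0.77, adjusted p = 0.0106). Sums for myeloid cells were 8.44 to 13.5 FPKM in WT and 11.4 to 22.5 FPKM in lin28Tg libraries, with 3 of 10 tested markers called higher, of which Cd14 and Adgre1 reached 10 reads in lin28Tg libraries alone, and Cd209a at 0 throughout. For erythroid cells the sums were 26.5 to 104.0 and 83.7 to 694.0 FPKM, with none of 6 tested markers called, and 694.0 FPKM was the sum of lin28Tg library 1. For NK cells they were 34.8 to 54.4 and 49.9 to 78.5 FPKM, with none of 7 called, and for CD4 and regulatory T cells 8.34 to 13.6 and 17.0 to 21.3 FPKM, with 1 of 5 called. In lin28Tg library 3 the female transcript Xist stood at 112.5 FPKM beside Y-linked Ddx3y at 15.1 FPKM, while in the other 5 libraries Xist was at most 0.112 FPKM and Ddx3y 30.2 to 40.5 FPKM, so RNA of female cells was found in this library alone. WT library 2 stood apart from its group, with a mean chi-square per gene of 16.12 and 17.98 against WT libraries 1 and 3, which differed from each other by 4.4. In bulk RNA, fewer cells of a type and less RNA per cell cannot be told apart.

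Lin28b, the gene that the labels name for the transgene, was counted first as a check of the labels. The WT libraries held 0, 2 and 5 Lin28b reads and the lin28Tg libraries 1070, 932 and 921. These are 0, 0.022 and 0.059 FPKM against 12.6, 10.2 and 9.94 FPKM, and the groups were far apart. Per counted read, lin28Tg cells held 390 times as much, with an exact 95% interval of 189 to 971 that covers counting error only. Lin28b lies at chr10:45376620-45486395, and reads from the transgene and from this gene cannot be told apart here. Its paralog Lin28a had no read in any of the 6 libraries.

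Of 12239 genes tested, 1038 (8.48%) differed between lin28Tg and WT cells at an adjusted p under 0.05 in limma, and are referred to as called. More genes were higher than lower in lin28Tg cells, 746 (6.1%) against 292 (2.39%), and the higher genes moved further. The median difference was 0.95 among genes called higher and -0.49 among genes called lower, both on the log2(FPKM + 0.5) scale used throughout for differences, which understates the change of low genes. At least 2-fold differences were found in 351 of the higher and in 21 of the lower genes. Over all genes tested the median difference was -0.01. The 3 lin28Tg and 3 WT libraries did not overlap in 4262 genes (34.8%), all called genes among them. A lack of overlap in a called gene thus adds nothing to its call. Of the higher genes, 64 reached 10 reads in lin28Tg libraries alone, so that they could only pass as higher. The number of calls depended on the libraries present. It was 777 without WT library 2 and fell to 363 without lin28Tg library 2, to 462 without lin28Tg library 3, to 508 without WT library 1 and to 612 without WT library 3.

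**Figure D1:**
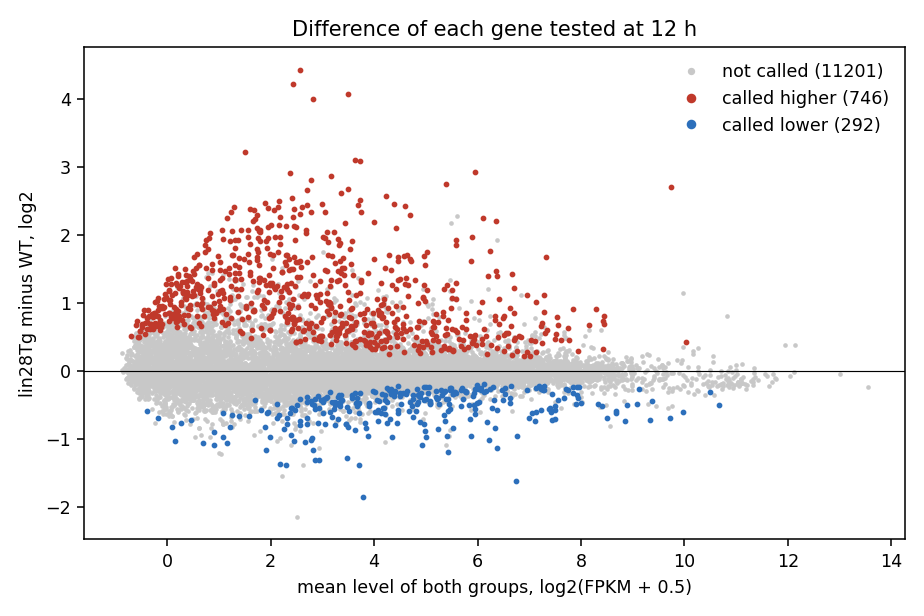
Difference between lin28Tg and WT cells at 12 h for each of the 12239 genes tested (y axis, log2) against the mean level of both groups (x axis, log2(FPKM + 0.5)). The 746 genes called higher, in red, reach further from 0 than the 292 genes called lower, in blue, and are found from low to high levels.

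Known let-7 targets rose where they passed the test. Of 31 such genes, 28 passed the filter on low reads, 13 were called higher and none lower (Hmga2 and Mycn among the 13 reached 10 reads in lin28Tg libraries alone), beside 6.1% and 2.39% of all genes tested, and the median difference was 0.48. Without lin28Tg library 2 or without lin28Tg library 3 the count was 7. Cdc34, an enzyme that passes ubiquitin to cell cycle inhibitors, had the tightest replicates. Its level was 133, 134 and 136 FPKM in WT and 241, 242 and 227 FPKM in lin28Tg libraries, a difference of 0.80 ± 0.06 (SE of the model, adjusted p = 0.000307). The groups lay far apart relative to their spread.

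Arid3a, a DNA-binding protein, stood at 2.68, 2.66 and 2.98 FPKM in WT and at 8.86, 10.2 and 11.2 FPKM in lin28Tg libraries (difference 1.68 ± 0.13, adjusted p = 0.000307). Its relative Arid3b stood at 13.8, 14.8 and 13.4 against 29.95, 26.1 and 27.2 FPKM (0.94 ± 0.08, adjusted p = 0.000409). Both genes were higher in every lin28Tg library than in any WT library. Rrm2, a subunit of the enzyme that makes deoxynucleotides, had the largest log2 difference within the list. It went from 10.8, 6.93 and 13.3 FPKM to 49.4, 85.8 and 83.7 FPKM (2.75 ± 0.29, adjusted p = 0.000742). The log2 scale understates the change of low genes, and per counted read Hmga2 rose more than Rrm2. Hmga2, a chromatin protein of embryonic cells, had no read in WT cells and 20, 24 and 16 reads in lin28Tg cells, at least 18.7-fold more per counted read when 3 reads over the WT group are taken as the floor, with an exact 95% lower limit of 14.7 on the ratio for counting error. It remained low, at 0.257 to 0.390 FPKM.

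The remaining genes with a printed site, known or predicted targets chosen among the higher genes, differed by 0.40 to 1.00. Nr6a1, an orphan nuclear receptor, differed by 1.00, Bcl2l1, which encodes the survival protein BCL-XL, by 0.91, Tnfrsf1b, a TNF receptor, by 0.69, Tgfbr1, a TGF-β receptor, by 0.54 and Golt1b, a protein of the Golgi, by 0.40. Bcl2l1 was at 156, 168 and 149 FPKM in WT and at 250, 301 and 360 FPKM in lin28Tg libraries, so that the groups did not overlap (adjusted p = 0.00392). Targets known from other cells did not all move. Nras, Ccnd2 and Cdk6, which carry growth signals into G1, differed by 0.14 to 0.19 and were not called, and Myc stood at 647, 702 and 667 FPKM in WT and 708, 672 and 713 FPKM in lin28Tg libraries (0.04 ± 0.10, adjusted p = 0.859). These 3 genes beside Myc were picked after their values were seen. A second list, of 18 predicted let-7 targets that the study chose on these samples, had 14 called higher and none lower, which is not independent evidence of its direction. Leaving out 1 library at a time ended the call of Tnfrsf1b (without WT 1, adjusted p up to 0.0555) and Golt1b (without WT 1, lin28Tg 2 or lin28Tg 3, adjusted p up to 0.0693).

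Among the classes of best match to let-7, the share called higher was highest for the 8mer. A 3′ UTR could be taken from the annotation for 11188 tested genes, of which 6.57% were called higher. Matches were sought on the mRNA strand only, as CTACCTCA (8mer), CTACCTC (7mer-m8) or TACCTCA (7mer-A1), and a gene was put in the class of its best match, since the 8mer holds both 7mers. Of 363 genes with an 8mer (3.24% of genes), 44 were called higher (12.12%) and 3 lower (0.83%). Among the 44 are Lin28b, the gene of the transgene, and Hmga2, which reached 10 reads in lin28Tg libraries alone. The share called higher was 6.92% of 694 genes with a 7mer-m8, 4.88% of 656 genes with a 7mer-A1 alone and 6.45% of 9475 genes with no match. The median difference of 8mer genes was 0.05 against -0.01 for genes with no match, so most 8mer genes moved little. By number of matches of any kind, 14.29% of 63 genes with 3 or more and 7.05% of 1404 genes with 1 were called higher. Lin28b, with 5 matches, and Hmga2, with 7, are among the 63. Genes with a match had longer 3′ UTRs, with a median of 2241 bases against 804 bases. Within the 25% of genes with the shortest 3′ UTRs, 14.47% of 76 genes with any match and 6.04% of 2717 genes without one were called higher. In the 25% with the longest they were 5.48% of 949 and 5.09% of 1848. A match is a description of the sequence and not a site shown to be used.

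**Figure D2:**
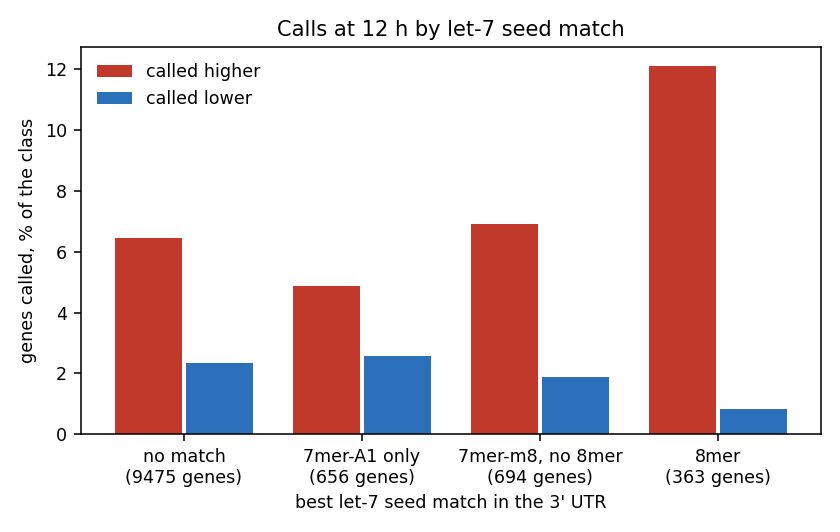
Share of genes called higher (red) and lower (blue) in lin28Tg cells at 12 h, in percent of the class (y axis), by the best let-7 seed match in the 3′ UTR (x axis, with the number of genes). The 8mer class stands at 12.12% higher and 0.83% lower, beside 6.45% and 2.33% for genes with no match.

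Genes of mitosis, which encode the cyclins, kinases and motor proteins that condense and separate chromosomes, held the largest number of called genes among the lists. All 46 listed members passed the filter and all 46 differences were above 0, with 42 called higher and none lower (91.3%, beside 6.1% of all genes tested) and a median of 1.76. The 4 that were not called were Pttg1 (0.14), Cenpa (0.27), Smc2 (0.78) and Smc4 (0.24). The count was 33 to 41 when 1 library was left out. The median over the list of the mean level was 2.245 FPKM in WT and 10.34 FPKM in lin28Tg cells. Ccna2, the cyclin of S phase and of entry into mitosis, stood at 1.66, 1.73 and 2.71 FPKM in WT and at 14.7, 25.8 and 24.9 FPKM in lin28Tg libraries (3.11 ± 0.26, adjusted p = 0.000373). In day 5 CTLs, which divide, its mean was 176 ± 14 FPKM in WT and 174 ± 29 FPKM in lin28Tg cells (SD, n = 3).

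Ccnb1, the mitotic cyclin, stood at 2.58, 2.13 and 1.82 FPKM in WT and at 9.41, 16.7 and 14.1 FPKM in lin28Tg libraries (2.34 ± 0.20). Plk1, a kinase needed at many steps of mitosis, was at 0.805, 1.00 and 1.30 against 5.53, 8.39 and 7.04 FPKM (2.27 ± 0.19). For Kif2c, a motor that takes microtubules apart at centromeres, the levels were 0.729, 0.971 and 1.53 against 7.23, 9.92 and 8.59 FPKM (2.54 ± 0.20). Adjusted p was between 0.000348 and 0.000409 for these genes, and none of them overlapped between the groups. The spindle genes Spag5 (2.44) and Kif18b (2.15), outside the list, were called as well. In 45 of the 46 members the lowest lin28Tg library was library 1, which also had the highest erythroid sum. In 30 of the 46 the lowest WT library was library 2. What lies behind this order of the libraries was not tested.

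The next list held 26 G1 cyclins, CDKs, E2F factors and related genes, which govern the passage from G1 to S phase. Of these 14 were called higher (53.8%, beside 6.1% of all genes tested). The other 12 did not pass, none was lower, and the median was 0.65. E2f7 among the 14 reached 10 reads in lin28Tg libraries alone. The count was 9 without WT library 1, 7 without lin28Tg library 2 and 6 without lin28Tg library 3. E2f2, an activating E2F factor, stood at 0.549, 0.508 and 0.839 FPKM in WT and at 4.05, 5.51 and 5.64 FPKM in lin28Tg libraries (2.29 ± 0.18, adjusted p = 0.000307). E2f8, an atypical E2F that represses transcription, stood at 0.263, 0.320 and 0.184 against 2.22, 4.43 and 4.30 FPKM (2.41 ± 0.23, adjusted p = 0.000578). The list thus held both activators and repressors of S phase genes among its called members. Cdkn2d, an inhibitor of CDK4 and CDK6, rose too, from 6.97, 7.09 and 6.42 to 12.5, 12.2 and 12.9 FPKM (0.82 ± 0.10, adjusted p = 0.00119).

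All 47 DNA replication genes had a difference above 0, with a median of 0.53. However, 10 were called higher (21.3%, beside 6.1% of all genes tested). This count was 3 without lin28Tg library 2 or without lin28Tg library 3, 5 without WT library 2 and 6 without WT library 1. Rrm2 led this list as well. Cdc6, which loads the replicative helicase, was at 3.61, 2.32 and 6.26 FPKM in WT and at 15.4, 26.0 and 24.2 FPKM in lin28Tg libraries (2.33 ± 0.34, adjusted p = 0.00358). Mcm10 (2.28 ± 0.33) and Cdc45 (1.68 ± 0.32), which act when origins fire, were also called. Pcna, the sliding clamp of the polymerase, was high already in WT cells, at 461, 391 and 488 FPKM, and stood at 443, 533 and 520 FPKM in lin28Tg libraries (0.14 ± 0.15, adjusted p = 0.605). Its libraries overlapped between the groups. When libraries were left out 1 at a time, the threshold was missed by Cdc45 (without lin28Tg 2 or lin28Tg 3, adjusted p up to 0.0633).

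Of 20 DNA repair genes, 12 were called higher and none lower, with a median of 1.15. Over all genes tested 6.1% were called higher and 2.39% lower. Leaving out 1 library lowered the number of calls over all genes, and no such count is given for this list. Clspn, an adaptor of the replication checkpoint, stood at 2.95, 2.52 and 4.80 FPKM in WT and at 14.0, 27.8 and 24.9 FPKM in lin28Tg libraries (2.50 ± 0.31, adjusted p = 0.00151). Fancd2 (1.96), Brca1 (1.57) and Polq (1.40), which mend crosslinks and double-strand breaks, were called at adjusted p between 0.00109 and 0.00188. As for mitosis, lin28Tg library 1 was the lowest of its group in 18 of the 20 genes, and in 44 of the 47 replication genes. WT library 2 was the lowest WT library in 19 of the 20 and in 44 of the 47. What lies behind this order was not tested.

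**Figure D3:**
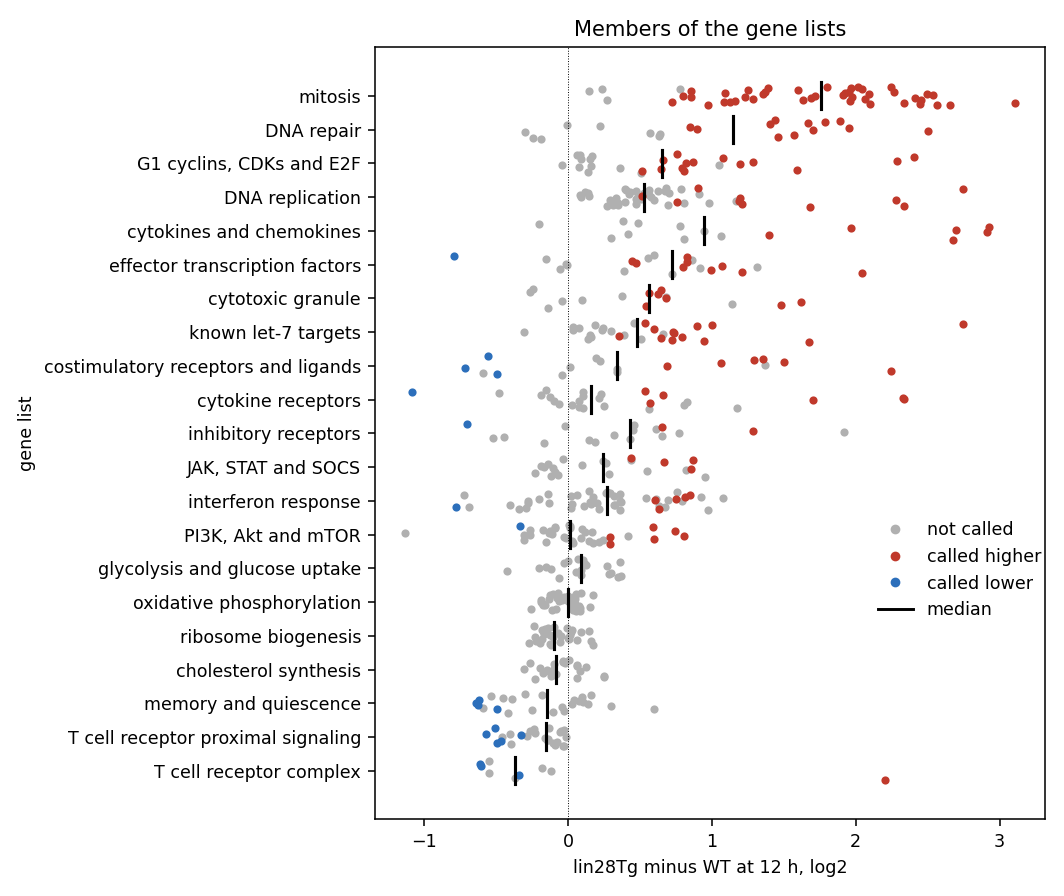
Difference between lin28Tg and WT cells at 12 h (x axis, log2) for each tested member of 21 gene lists (y axis). Each point is a gene, coloured by its call, and the black bar is the median of the list. The mitosis list has its median at 1.76 with 42 of 46 genes called higher, the lists of glycolysis, oxidative phosphorylation, ribosome biogenesis and cholesterol synthesis lie around 0 with no gene called, and Cd247 stands alone to the right in the T cell receptor complex.

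The promoters of the mitosis genes were read for the letters TTTGAA, the cell cycle homology region (CHR) through which repressor complexes keep such genes silent in resting cells, and for TTTCCCGC or TTTGGCGC, which E2F factors bind. This search was chosen after the values were seen. RefSeq windows on GRCm38 of 250 bases before to 50 after the start were at hand for 37 of the 46 mitosis genes and 38 of the 47 DNA replication genes, and both strands were searched. TTTGAA was found in 25 of the 37 mitosis promoters (67.6%), beside 18.1% of all 27025 promoters and 11.9% of the promoters of tested genes. The E2F letters stood in 12 of the 38 DNA replication promoters (31.6%), beside 1.6% of all promoters and 3.3% of those of tested genes. Called lower genes held TTTGAA in 13.0% of promoters, and genes called higher outside the cell cycle lists in 15.9%. The windows of the mitosis genes with the smallest adjusted p that held the letters, and of 2 replication genes, are shown 5′ to 3′ on the strand of the gene with the match in capitals. On the opposite strand TTTGAA reads TTCAAA and TTTCCCGC reads GCGGGAAA.
Kif2c, chr4:117178858-117178887: ccaggctgctctTTCAAAcctgagtaatgc
Plk1, chr7:122159453-122159482: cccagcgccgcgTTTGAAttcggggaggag
Espl1, chr15:102296254-102296283: tcactagggataTTTGAAaggaggtgctgg
Kif11, chr19:37376351-37376380: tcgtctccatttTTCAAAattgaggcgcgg
Mki67, chr7:135716460-135716489: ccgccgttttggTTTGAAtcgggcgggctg
Spc25, chr2:69206172-69206201: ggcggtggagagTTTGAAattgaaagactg
Cdc6, chr11:98908001-98908030: ggccggtggagaGCGGGAAAtcgcctgggg
Gins3, chr8:95633506-95633535: ggcgagtgcggcGCGGGAAAgcgagtttga
The genes of the 6 CHR windows differed by 1.97 to 2.54 between the groups. Such a match describes these letters only, and whether a factor binds there was not tested.

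Several effector cytokines were higher. Of 16 cytokines and chemokines 15 could be tested, with 6 called higher and none lower and a median of 0.95. The background over all genes tested was 6.1% higher and 2.39% lower. How the count of this list changes when 1 library is left out is not given here. Ifng, the main cytokine of cytotoxic T cells, stood at 227, 294 and 169 FPKM in WT and at 1310, 1666 and 1473 FPKM in lin28Tg libraries (2.70 ± 0.26, adjusted p = 0.000578). The lowest lin28Tg library was far above the highest WT library. Il2, the growth factor of T cells, was at 18.6, 27.2 and 22.3 against 68.6, 72.4 and 147 FPKM (1.96 ± 0.41, adjusted p = 0.0184). Il3, a growth factor of blood cells, was at 9.47, 27.7 and 9.02 against 108, 98.7 and 113 FPKM (2.93 ± 0.42, adjusted p = 0.00333). For both genes every lin28Tg library lay above every WT library, although 1 library in each stood away from its group. Leaving out 1 library at a time ended the call of Il2 (without WT 1, WT 3, lin28Tg 2 or lin28Tg 3, adjusted p up to 0.075).

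Csf2, which encodes GM-CSF, was at 0.798, 0.746 and 0.558 FPKM in WT and at 6.82, 9.82 and 9.33 FPKM in lin28Tg libraries, and per counted read lin28Tg cells held 12.5 times as much (95% interval 8.36 to 19.4). Ccl9, a chemokine, was at 28.5, 51.1 and 41.3 against 119, 111 and 88.1 FPKM (1.40 ± 0.20, adjusted p = 0.00334). Myeloid marker sums were 8.44, 13.5 and 8.84 against 22.5, 22.5 and 11.4 FPKM, highest in WT library 2 and lowest in lin28Tg library 3 within the groups, as for Ccl9, and their part in its values was not tested. A pair of cytokines known from other T cell lineages had almost no reads in WT cells. Il17a, the cytokine of type 17 cells, had 1, 1 and 0 reads in WT and 123, 184 and 272 in lin28Tg libraries, a ratio of 270 per counted read (95% interval 74.5 to 2240), and was at 6.67 to 13.5 FPKM in lin28Tg cells. Il13, a type 2 cytokine, had 0, 2 and 0 reads against 52, 127 and 104 (ratio 132, 95% interval 36.2 to 1100). Both genes lie outside the list and reached the filter of 10 reads in lin28Tg libraries alone, so their levels are given as a description. The sum of CD4 and regulatory T cell markers was higher in lin28Tg cells as given above, with Cd4 at 0.378 to 1.12 FPKM in WT and 0.400 to 1.40 FPKM in lin28Tg libraries, and its part in these values was not tested.

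Of 15 tested genes of cytotoxic granules, 7 were called higher (46.7%, beside 6.1% of all genes tested) and none lower, with a median of 0.56. The count was 1 without WT library 3 or without lin28Tg library 2, and 3 without WT library 1 or without lin28Tg library 3. Gzmc, a granzyme, stood at 15.03, 14.8 and 7.58 FPKM in WT and at 29.8, 50.6 and 36.7 FPKM in lin28Tg libraries (1.62 ± 0.36, adjusted p = 0.023). Gzma, another granzyme, differed by 1.48 ± 0.32. Serpinb6b (0.63 ± 0.10) and Serpinb9 (0.56 ± 0.12), inhibitors that protect the cell from its own proteases, rose as well. NK cell markers summed higher in lin28Tg cells, as given above, with none of 7 called, and their part was not tested. Calls that did not survive leaving out 1 library were those of Gzmc (without WT 3, lin28Tg 2 or lin28Tg 3, adjusted p up to 0.104), Gzma (without WT 2, WT 3 or lin28Tg 2, adjusted p up to 0.0685) and Serpinb9 (without WT 1, WT 3, lin28Tg 2 or lin28Tg 3, adjusted p up to 0.0782).

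Of 21 transcription factors of effector cells, 9 were called higher and 1 lower, with a median of 0.72. These are 42.9% and 4.8% of the list, beside 6.1% and 2.39% of all genes tested. The count of higher genes was 3 without WT library 1, 2 without lin28Tg library 2 or 3, and 1 without WT library 3. Tbx21, which encodes T-bet, stood at 28.4, 25.9 and 22.3 FPKM in WT and at 39.6, 42.3 and 58.0 FPKM in lin28Tg libraries (0.83 ± 0.16, adjusted p = 0.0137). Bhlhe40, a repressor needed for cytokine output, was at 64.8, 73.6 and 47.9 against 115, 145 and 179 FPKM (1.21 ± 0.24, adjusted p = 0.014), Irf8 differed by 0.80 ± 0.12 and Gata3, the factor of type 2 cells, by 1.00 ± 0.21. The gene called lower was Tox, a factor of exhausted T cells, at 7.04, 7.69 and 6.33 against 4.58, 3.81 and 3.31 FPKM (-0.80 ± 0.14, adjusted p = 0.00846). Its groups did not overlap. Single left-out libraries ended the call of Tbx21 (without WT 3, adjusted p up to 0.0529), Bhlhe40 (without WT 3, lin28Tg 2 or lin28Tg 3, adjusted p up to 0.0633) and Gata3 (without WT 1, WT 3, lin28Tg 2 or lin28Tg 3, adjusted p up to 0.0781).

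Receptors split in both directions. Among 17 costimulatory receptors and ligands, 6 were called higher and 3 lower, with a median of 0.34. These are 35.3% and 17.6% of the list, beside 6.1% and 2.39% of all genes tested. The higher count was 3 without lin28Tg library 2 or without lin28Tg library 3. Cd70, the ligand of CD27, reached 10 reads in lin28Tg libraries alone and had 3, 9 and 0 reads in WT and 27, 52 and 56 in lin28Tg libraries (ratio 10.5 per counted read, 95% interval 5.82 to 20.8). Tnfrsf8, which encodes CD30, had 7, 10 and 8 reads against 67, 71 and 92 (ratio 8.59, 95% interval 5.67 to 13.6). Cd27 itself fell, from 357, 394 and 377 to 297, 263 and 251 FPKM (-0.50 ± 0.07, adjusted p = 0.00395), so ligand and receptor moved in opposite directions. Slamf1 (-0.71 ± 0.12) and Tnfsf8, the ligand of CD30 (-0.56 ± 0.11), were lower too. When libraries were left out 1 at a time, the threshold was missed by Tnfsf8 (without WT 1, WT 3, lin28Tg 2 or lin28Tg 3, adjusted p up to 0.0805).

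Of 26 cytokine receptors, 6 were called higher and 1 lower, with a median of 0.16. These are 23.1% and 3.8% of the list, beside 6.1% and 2.39% of all genes tested. The higher count was 3 without lin28Tg library 2 or without lin28Tg library 3. Il1rl1, the receptor of IL-33, stood at 0.243, 0.327 and 0.240 FPKM in WT and at 4.09, 3.68 and 2.56 FPKM in lin28Tg libraries (2.33 ± 0.16, adjusted p = 0.000213). Il18rap, a chain of the IL-18 receptor, stood at 1.63, 1.83 and 1.76 against 11.6, 11.5 and 9.78 FPKM (2.34 ± 0.23, adjusted p = 0.000578). Both receptors belong to a cluster on chromosome 1 between 40 and 50 Mb, where 5 of 22 tested genes (22.7%, beside 8.48% of all genes) were called, all of them higher, namely Il1rl1, Il18rap, Il1r1, Il1r2 and Il18r1. Of all windows of 10 Mb, 2 others had a higher share. The receptor gene called lower was Il6st, the shared signaling chain of the IL-6 family, at 43.8, 42.7 and 36.3 against 19.6, 16.9 and 21.1 FPKM (-1.09 ± 0.09, adjusted p = 0.000409). The IL-2 receptor chain Il2rb differed by 0.66 ± 0.12. Single left-out libraries ended the call of Il2rb (without lin28Tg 2 or lin28Tg 3, adjusted p up to 0.0556).

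Among 21 JAK, STAT and SOCS genes, 4 were called higher (19.0%, beside 6.1% of all genes tested) and none lower. The count was 2 without WT library 1, WT library 2 or lin28Tg library 2. Stat5a, which carries the IL-2 signal, was at 105, 119 and 102 FPKM in WT and at 169, 190 and 251 FPKM in lin28Tg libraries (0.87 ± 0.13, adjusted p = 0.00438). Stat3 differed by 0.67 ± 0.11 and Socs3, a feedback inhibitor, by 0.86 ± 0.22. Stat5b (0.43 ± 0.12, adjusted p = 0.0525) and Jak3 (0.28 ± 0.08, adjusted p = 0.0574) missed the threshold. Of 17 tested inhibitory receptors 2 were called higher, Klrc1 (1.28 ± 0.27) and Nt5e (0.66 ± 0.17), and 1 lower, Vsir (-0.71 ± 0.16), which is 11.8% and 5.9% of the list beside 6.1% and 2.39% of all genes tested. The median was 0.43, with 12 of the 17 differences above 0. Pdcd1, which encodes PD-1, was not called and overlapped between the groups, at 66.7, 104 and 72.8 against 97.1, 73.8 and 69.8 FPKM. It was picked after its values were seen. Calls that did not survive leaving out 1 library were those of Socs3 (without any 1 of the 6 libraries, adjusted p up to 0.144), Klrc1 (without WT 1, WT 3, lin28Tg 1 or lin28Tg 2, adjusted p up to 0.0907), Nt5e (without WT 1, WT 2, WT 3, lin28Tg 1 or lin28Tg 2, adjusted p up to 0.156) and Vsir (without lin28Tg 2 or lin28Tg 3, adjusted p up to 0.115).

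Several genes of the T cell receptor complex were lower and 1 was higher. Of 9 genes of the receptor complex, 3 were called lower (33.3%) and 1 higher (11.1%), beside 2.39% and 6.1% of all genes tested. The lower count was 1 without WT library 1, WT library 3 or lin28Tg library 3, 0 without lin28Tg library 2 and 5 without lin28Tg library 1. Trac, the constant region of the α chain, stood at 1167, 1316 and 1131 FPKM in WT and at 937, 762 and 714 FPKM in lin28Tg libraries (-0.61 ± 0.16, adjusted p = 0.0479). Trbc1 (-0.62 ± 0.11) and Cd3e (-0.34 ± 0.08) were called lower too, while the differences of Cd3d, Cd3g and Trbc2 were -0.37 to -0.55 and did not pass. The gene called higher was Cd247, the ζ chain that carries most of the signaling motifs of the complex. Removing 1 library at a time lost the call of Trac (without WT 1, WT 2, WT 3, lin28Tg 2 or lin28Tg 3, adjusted p up to 0.172), Trbc1 (without lin28Tg 2, adjusted p up to 0.0597) and Cd3e (without WT 1, WT 3, lin28Tg 2 or lin28Tg 3, adjusted p up to 0.112).

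Cd247 stood at 34.1, 28.1 and 23.6 FPKM in WT and at 146, 134 and 123 FPKM in lin28Tg libraries (2.20 ± 0.12, adjusted p = 4.42e-05). The groups did not overlap. Cd247 lies at chr1:165788681-165877277. It was called higher in lin28Tg cells at each stage, with means of 142 and 449 FPKM in naive WT and lin28Tg cells and of 81.7 and 292 FPKM on day 5. Among 26 genes of proximal receptor signaling none was called higher and 5 were lower (19.2%, beside 2.39% of all genes tested). Dgka (-0.50 ± 0.10), Plcg1 (-0.33 ± 0.07), Fyn (-0.47 ± 0.11) and Ptpn22 (-0.57 ± 0.14) were among the 5. The lower count was 0 without lin28Tg library 2 or 3, 1 without WT library 1, 2 without WT library 2 and 3 without WT library 3. When libraries were left out 1 at a time, the threshold was missed by Dgka (without WT 1, WT 3, lin28Tg 2 or lin28Tg 3, adjusted p up to 0.0674), Plcg1 (without WT 1, WT 2, lin28Tg 2 or lin28Tg 3, adjusted p up to 0.0809), Fyn (without WT 2, WT 3, lin28Tg 2 or lin28Tg 3, adjusted p up to 0.116) and Ptpn22 (without WT 1, WT 2, lin28Tg 2 or lin28Tg 3, adjusted p up to 0.136).

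Of 24 genes of memory and quiescence, none was called higher, beside 6.1% of all genes tested. Called lower were 4 (16.7%, beside 2.39% of all genes tested), and the median was -0.14. Ets1, a factor of lymphocyte identity, stood at 165, 159 and 157 FPKM in WT and at 115, 99.3 and 101 FPKM in lin28Tg libraries (-0.63 ± 0.06, adjusted p = 0.000672). Id3 (-0.64 ± 0.10) and Lef1 (-0.62 ± 0.15), factors of memory precursors, fell by similar amounts, and Cd27 is the last of the 4. Tcf7, which encodes TCF-1, overlapped between the groups, at 118, 92.1 and 93.8 against 92.7, 77.6 and 100 FPKM, and was not called. Il7r, Klf2 and S1pr1 stood apart in WT library 2, at 16.6, 19.9 and 7.11 FPKM against at most 2.67, 5.11 and 0.758 FPKM in the other WT libraries, and were not called. These 4 genes were picked after their values were seen. Removing 1 library at a time lost the call of Lef1 (without WT 1, WT 2, WT 3, lin28Tg 2 or lin28Tg 3, adjusted p up to 0.129).

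**Figure D4:**
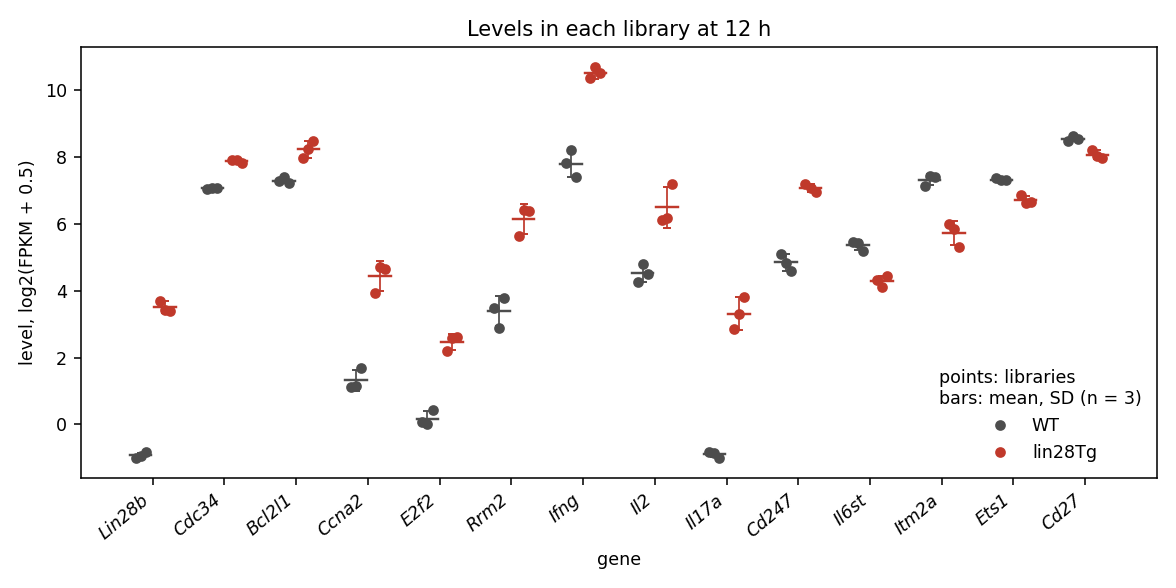
Level of 14 genes in each library at 12 h (y axis, log2(FPKM + 0.5)), WT in grey and lin28Tg in red, with the mean and SD of 3 libraries. The groups are far apart for Lin28b, Il17a and Cd247, while for Cdc34, Ets1 and Cd27 a smaller difference stands beside little spread.

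The genes called lower with the smallest adjusted p were few and mostly of other kinds. Gm8369, a predicted gene, stood at 18.6, 18.5 and 18.4 FPKM in WT and at 6.85, 7.07 and 6.52 FPKM in lin28Tg libraries (-1.39 ± 0.09, adjusted p = 0.000107). Itm2a, a membrane protein of activated T cells, was at 139, 172 and 169 against 62.9, 57.6 and 39.3 FPKM (-1.62 ± 0.16, adjusted p = 0.000578). Pknox1, a homeobox factor, differed by -0.86, Cd53, a tetraspanin of leukocytes, by -0.58 and Ttc3, a ubiquitin ligase, by -0.49. The long noncoding RNAs A930002I21Rik (-1.37) and AI504432 (-0.75) lie near each other on chromosome 3. None of these genes overlapped between the groups, which the rule that named them required.

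Positions were read in windows of 10 Mb. Of 206 windows with at least 20 tested genes, the highest share of called genes was on chromosome 6 between 40 and 50 Mb, with 19 of 64 genes (29.7%, beside 8.48% overall), of which 17 were lower. This window holds the Trb locus and the Gimap genes, GTPases of lymphocyte survival. Of 9 tested Gimap genes 8 were called lower and none higher, with differences from -0.75 for Gimap4 to -0.28. Gimap4 stood at 178, 171 and 166 FPKM in WT and at 112, 102 and 97.0 FPKM in lin28Tg libraries (adjusted p = 0.000824), and Gimap6 differed by -0.70 ± 0.08. Of 12 tested joining segments of the Trb locus (Trbj) 6 were lower and none higher, led by Trbj2-2 (-1.02 ± 0.11). Both families were picked after their values were seen, and members of each can share reads with close copies. With windows of 5 Mb the highest share was 32.1%, on the same chromosome between 40 and 45 Mb (9 of 28 genes).

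Lists of growth metabolism held no gene called by limma in either direction. Of their 161 genes, 7 were above and 11 below 0 at an unadjusted p under 0.05, and voom on the recovered reads called 0 higher and 1 lower. The lists were 20 genes of glycolysis and glucose uptake (median 0.09), 35 of oxidative phosphorylation (0.00), 23 of cholesterol synthesis (-0.09), 30 of ribosome biogenesis (-0.10), 20 translation factors (-0.02) and 33 genes of amino acid supply (0.01). Differences in the 30 ribosome biogenesis genes ran from -0.28 to 0.17, while those in glycolysis ran from -0.43 to 0.37. Hk2, the first enzyme of glycolysis, stood at 99.4, 93.2 and 95.4 FPKM in WT and at 109, 118 and 132 FPKM in lin28Tg libraries (0.30 ± 0.11, adjusted p = 0.133), with no overlap and yet no call. The translation factors Eif5a (0.04 ± 0.10) and Eif4e2 (0.15 ± 0.08) and the tRNA synthetase Kars (0.02 ± 0.11) were not called either.

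Smaller lists had few calls each. Of 35 PI3K, Akt and mTOR genes 6 were higher and 1 lower, with Mtor at 39.9, 40.9 and 40.8 FPKM in WT and 50.1, 48.6 and 52.7 FPKM in lin28Tg libraries (0.29 ± 0.06, adjusted p = 0.0204), its inhibitor Tsc1 lower (-0.34 ± 0.08), and the Akt phosphatase Phlpp1 higher (0.81 ± 0.11). The higher count was 2 to 4 when any 1 library was left out. Beside 6.1% higher and 2.39% lower over all genes tested, some of these lists had shares near the background. Of 48 interferon response genes 5 were higher (10.4%) and 1 lower (2.1%), and 0 to 2 were higher when any 1 library was left out. Of 27 activation transcription factors 6 were higher, Jun (1.30), Jund (0.56) and Nfkb2 (0.59) among them, and Irf4, the factor that scales with receptor signal, was lower (-0.40 ± 0.09). The higher count was 3 without WT library 3 or lin28Tg library 3. Of 22 chromatin repressors 3 were higher, including Uhrf1 (1.42) and Cbx2 (1.02), and the count was 1 without WT library 1, WT library 2, lin28Tg library 2 or lin28Tg library 3, and 2 without WT library 3. Of 27 antioxidant genes 2 were higher (7.4%), the oxidase subunits Cyba (0.51) and Ncf4 (1.05), and of 22 genes of the unfolded protein response 1 was, Ero1l (0.44). In the BCL2 family Bcl2l1 was higher and Bid lower (-0.31 ± 0.07) among 16 genes. Calls that did not survive leaving out 1 library were those of Mtor (without WT 1, WT 2, WT 3, lin28Tg 2 or lin28Tg 3, adjusted p up to 0.091), Tsc1 (without any 1 of the 6 libraries, adjusted p up to 0.111), Jun (without lin28Tg 3, adjusted p up to 0.051), Irf4 (without WT 1, WT 3, lin28Tg 1 or lin28Tg 2, adjusted p up to 0.111), Uhrf1 (without WT 1, WT 2, lin28Tg 2 or lin28Tg 3, adjusted p up to 0.0849), Ero1l (without WT 1, WT 2, lin28Tg 2 or lin28Tg 3, adjusted p up to 0.0942) and Bid (without WT 1, WT 2, WT 3, lin28Tg 1 or lin28Tg 3, adjusted p up to 0.116).

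Of 19 tested genes that make and use miRNAs, 2 were higher and 2 lower, 10.5% each, beside 6.1% and 2.39% of all genes tested, and the median was -0.11. Tarbp2, a partner of Dicer, stood at 71.5, 65.8 and 70.3 FPKM in WT and at 99.7, 99.9 and 97.5 FPKM in lin28Tg libraries (0.50 ± 0.06, adjusted p = 0.00147), and Dicer1 differed by 0.35 ± 0.08. Ago1 (-0.34 ± 0.08) and Ago3 (-0.49 ± 0.12), which hold miRNAs against their targets, were lower, but neither was called when any 1 of the 6 libraries was left out. Of 21 genes that the study names in its account of naive or 12 h cells, 9 were called higher and none lower, with a median of 0.44. The count was 4 without lin28Tg library 2 or 3 and 5 without WT library 3. Besides those given above, Notch2 (0.47) and its partner Rbpj (0.44) were called, while Ezh2 (0.46, adjusted p = 0.114), Il12rb2 (0.83, adjusted p = 0.275), Il4ra (0.23, adjusted p = 0.127) and Slc16a10 (-0.18, adjusted p = 0.677) were not. Dropping single libraries in turn ended the call of Dicer1 (without WT 1, WT 2, WT 3, lin28Tg 2 or lin28Tg 3, adjusted p up to 0.0989), Ago1 (without any 1 of the 6 libraries, adjusted p up to 0.143), Ago3 (without any 1 of the 6 libraries, adjusted p up to 0.168), Notch2 (without WT 1, WT 2, WT 3, lin28Tg 2 or lin28Tg 3, adjusted p up to 0.153) and Rbpj (without WT 1, WT 3, lin28Tg 1, lin28Tg 2 or lin28Tg 3, adjusted p up to 0.142).

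The effect at 12 h was set against the effect of the same transgene in naive cells and in day 5 CTLs, in one model of all 27 libraries that tested 14453 genes. The effect differed between 12 h and naive cells in 1134 genes (7.85%) and between 12 h and day 5 in 928 genes (6.42%). At 12 h the effect was above that in naive cells in 400 genes and below it in 734, and above that on day 5 in 613 genes and below it in 315. Without scaling between libraries these splits were 286 and 952, and 791 and 209. Each comparison used its own WT and lin28Tg libraries, but culture differed too, since day 5 CTLs were raised with irradiated splenocytes and IL-2.

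Mitosis genes were higher in lin28Tg cells before any stimulation and no longer on day 5. The median difference over the 46 genes was 2.53 in naive cells, 1.78 at 12 h and -0.10 on day 5, and 42 of the 46 differed between 12 h and day 5 by the test of that difference, all with the larger effect at 12 h. Against naive cells 9 had a smaller and 2 a larger effect at 12 h. Mean Ccna2 was 1.06 ± 0.065 FPKM in naive WT and 20.3 ± 6.1 FPKM in naive lin28Tg cells (SD, n = 3). The genotypes thus differed in this gene ahead of stimulation. DNA repair medians were 1.23, 1.15 and -0.04 and DNA replication medians 0.88, 0.52 and -0.01 over the 3 stages. The medians over all genes were -0.07, -0.02 and 0.01.

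Cytokines and chemokines had medians of 0.73, 0.95 and 0.70 over the stages. Of the 15 genes, 4 had a larger effect at 12 h than in naive cells and 5 a larger effect than on day 5, and none a smaller one. Il3 had means of 0.034 and 0.033 FPKM in naive WT and lin28Tg cells, and 0 FPKM in both on day 5. Il2 had 0.095 and 0.21 FPKM in naive cells, and 0 and 0.027 FPKM on day 5. For cytokines so near the floor at the other stages the difference could hardly fall below 0. The counts are thus given as a description. The effect of Il17a at 12 h exceeded that in naive cells by 4.36 and that on day 5 by 3.94. Mean Il17a was 0.018 and 0 FPKM in naive WT and lin28Tg cells, and 0.061 and 0.26 FPKM on day 5. At 12 h it reached the filter on low reads in lin28Tg libraries alone. Its differences between stages could thus hardly fall below 0 and are given as a description. Ifng was at a mean of 0.807 ± 0.96 FPKM in naive WT and 2.65 ± 1.1 FPKM in naive lin28Tg cells (SD, n = 3). Jade2, a PHD finger protein, changed direction, from a mean of 35.8 ± 0.68 FPKM in naive WT and 23.7 ± 2.4 FPKM in naive lin28Tg cells to 21.0, 20.2 and 22.8 FPKM in WT and 33.5, 38.2 and 36.3 FPKM in lin28Tg libraries at 12 h (0.73 ± 0.08). The genes of memory and quiescence had medians of -0.42, -0.15 and -0.96, the smallest at 12 h, and 6 of 24 differed from day 5, all with the less negative effect at 12 h. The unfolded protein response had medians of 0.41, 0.01 and 0.37, with 12 of 22 genes called higher in naive cells, none in this model at 12 h and 11 on day 5. By the test of the difference, 5 of them had a smaller effect at 12 h than in naive cells and 1 than on day 5.

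**Figure D5:**
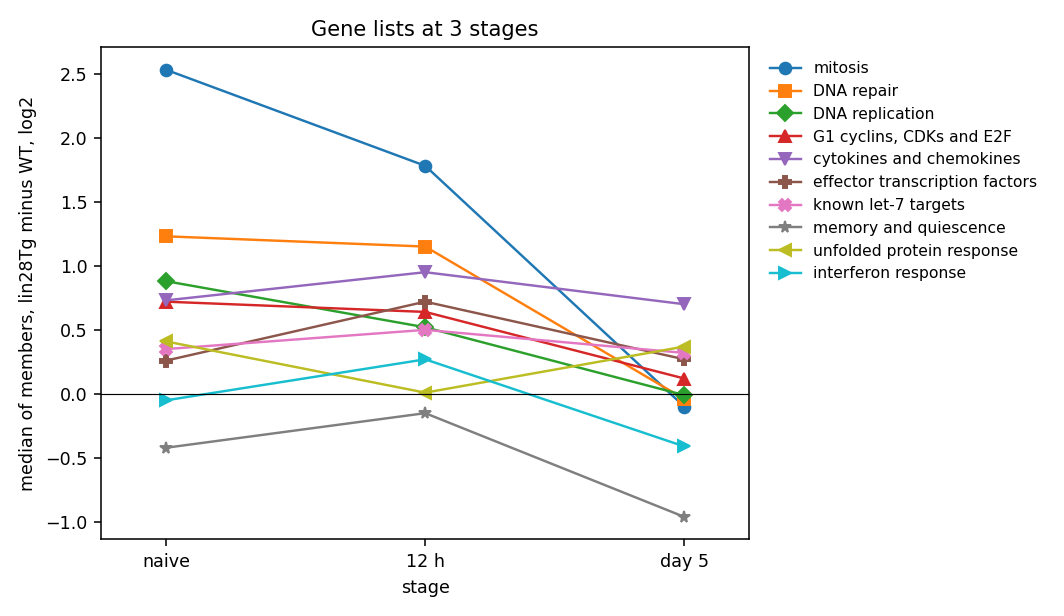
Median difference between lin28Tg and WT cells (y axis, log2) of 10 gene lists in naive cells, at 12 h and on day 5 (x axis). Mitosis genes go from 2.53 to 1.78 and -0.10, known let-7 targets stay between 0.32 and 0.50, and the memory list is lowest on day 5 at -0.96.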

How the data were processed

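RNA of CD8 T cells of 3 genotypes was sequenced naive, 12 h after activation and on day 5. Per the labels and the study's methods, reads were aligned with TopHat2 2.0.9 and Bowtie2 2.0.6 to GRCm38 (mm10) and counted per gene with HTSeq 0.6.1. The annotation release is not given in the sources used here. The authors deposited FPKM, which is per kilobase of gene and scaled to the fragments on genes, for each library. Their group signal, log2 fold change and p-value columns were not used. A gene's FPKM values were whole multiples of what 1 read is worth (100.0% of 462839 values above 0, tolerance 0.02), which gave the reads behind each value and the depth of each library.

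The filter kept 12239 genes, those that reached 10 reads, recalculated to the median depth, in 3 or more libraries and 15 reads over all libraries. FPKM was scaled between libraries by a trimmed mean of ratios (30% of ratios and 5% of levels trimmed) and tested as log2(FPKM + 0.5), so that fold changes of low genes are understated. limma 3.58.1 in R 4.3.3, with a trend of spread on level, was fitted over the 9 libraries at 12 h. The let-7Tg libraries lent their spread and also counted in the filter and the scaling. P-values were adjusted by Benjamini and Hochberg over all genes tested, with a threshold of 0.05. Differences between stages came from interaction terms over all 27 libraries. The scripts were tested on simulated data. Python 3.11.15 with pandas 2.3.3 and numpy 2.4.6 made the tables, and matplotlib 3.10.9 the plots. Gene positions and 3′ UTRs came from GENCODE M21 on GRCm38 (34490 of 35275 identifiers matched) and miRNAs and promoters from RefSeq.

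Genes were named by a rule that took Lin28b, the genes the study discusses, the 12 called genes of smallest adjusted p in each direction whose libraries did not overlap, up to 4 called members of each list in each direction, 3 genes for each interaction, and up to 10 higher let-7 targets with the longest match, 123 genes in all, of which some are not reported here. A few more genes are given as list members or as examples chosen after their values were seen. The lists and the genes described were chosen with earlier results of these data known. Alternatives were another or no scaling, pseudocounts of 0.1 and 1, other filters, limma voom on the recovered reads, the 6 libraries alone, the replicate number as a block, and each library left out in turn.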

Additional observations from a re-analysis of the deposited data

Results flagged for a closer look

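The effect of the lin28 transgene differed between 12 h and naive cells for 1134 of 14453 genes tested, by the interaction term of limma over 27 libraries. The values that follow are the log2 difference between lin28Tg and WT cells at 12 h minus that in naive cells, with adjusted p from 3.21e-08 to 0.0462. Among cytokines and ligands it was Il17a 4.36, Il3 2.93, Il13 2.55, Csf2 2.38, Cd70 1.94, Il2 1.75 and Tnfsf10 1.22. Among receptors and genes of signalling it was Socs3 1.23, Irs2 1.21, Il1rl1 1.15, Stat5a 1.14, Stat5b 0.95, Pik3r5 0.80, Il4ra 0.75, Cd247 0.64, Phlpp1 0.59, Stat3 0.58 and Mtor 0.36. Among cell cycle and repair genes it was Cdkn2d 0.94 and Polq 0.93, and among other genes Jade2 1.40, Gata3 1.03, Cbx2 0.86 and Arid3b 0.83. It was below 0 for Lin28b -2.25, Irf4 -1.18, Slc16a10 -1.18, Hk2 -1.08, Slamf1 -0.68 and Gimap4 -0.54. Of the genes whose difference had opposite signs at these stages, Jade2 and Stat5b were called lower in naive cells and higher at 12 h in this model, although Stat5b missed the threshold in the comparison at 12 h alone. Il17a, Il3, Cdkn2d, Stat5a, Pik3r5, Gata3, Mtor and Socs3, below 0 in naive cells and above 0 at 12 h, were not called in naive cells. Irs2 and Il4ra, of the same signs, and Irf4 and Slc16a10, of the reverse signs, were not called at 12 h in this model. At 12 h Il17a, Il13 and Cd70 reached the filter on low reads in lin28Tg libraries alone, so their values are given as a description. Il3, Il2 and Csf2 were near the floor in naive cells of both genotypes, so their values could hardly fall below 0. The lowest adjusted p named above is that of Il17a.

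Against day 5, the effect at 12 h differed for 928 genes by the same kind of term, with adjusted p from 2.36e-07 to 0.0463 for the genes named here. The effect at 12 h minus that on day 5 was, among cell cycle, replication and repair genes, Ccna2 3.07, E2f2 2.74, Kif2c 2.69, Spag5 2.56, Clspn 2.56, E2f8 2.52, Rrm2 2.44, Kif18b 2.41, Mcm10 2.39, Cdc6 2.35, Plk1 2.21, Ccnb1 2.20, Fancd2 1.92, Brca1 1.76, Cdc45 1.72, Polq 1.47, Uhrf1 1.45, Cdkn2d 0.72 and Suv39h1 0.54. Cytokines and ligands had Il17a 3.94, Il3 2.92, Il13 2.76, Csf2 2.24, Cd70 2.20, Il2 1.88, Ccl9 1.26 and Tnfsf10 1.14. Receptors and genes of signalling had Il18rap 1.67, Nt5e 1.61, Phlpp1 1.28, Socs3 1.27, Stat5a 1.08, Pik3r5 0.88, Il4ra 0.83, Cd27 0.82, Dgka 0.66 and Stat5b 0.60. The other genes with a positive value were A930002I21Rik 1.63, Dhx58 1.29, Gata3 1.20, Gm8369 1.18, Jade2 1.16, Cbx2 1.10, Nfkb2 0.68 and Hmga2 0.65. Il3, Il2 and Ccl9 were near the floor on day 5 in both genotypes, so their values could hardly fall below 0. Of the genes with a positive value, Il17a, Il13, Cd70 and Hmga2 reached the filter on low reads at 12 h in lin28Tg libraries alone. Their values are given as a description, and the lowest adjusted p named here is that of Il17a. Values below 0 were those of Slc16a10 -2.10, Vsir -0.94, Lin28b -0.83, Trbc1 -0.72, Cd53 -0.67 and Ttc3 -0.47. Both comparisons share the libraries at 12 h. No group held more than 3 libraries, so no library was tested by a rule for standing apart from its group. WT library 2 differed most from the others of its group, with a mean chi-square per gene of 16.12 and 17.98.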

How the results depend on the processing

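With all libraries kept, 0 of the genes called under an alternative had the opposite direction to the call reported, and the count of 1038 genes stayed between 811 (no filter on low reads) and 1454 (the 6 libraries alone, 1014 higher and 440 lower). Leaving out 1 library gave 363 (without lin28Tg 2) to 777 (without WT 2) genes, 290 to 606 of them higher and 73 to 185 lower, and 92 to 156 instead of 174 list members. Genes whose effect differed numbered 684 to 917 instead of 1134 against naive cells and 610 to 788 instead of 928 against day 5. With a pseudocount of 0.1 there were 684 against naive cells. No scaling moved the share of positive differences from 35.3% to 23.1% against naive cells and from 66.1% to 79.1% against day 5. With all libraries kept, DNA replication genes called ranged from 6 (no filter) to 21 (6 libraries) beside 10. Leaving out single libraries gave lower counts, as stated in the Results. With 8mer matches only, the share of genes called higher was 12.12% instead of 7.24%. Kars, not called, lay between -0.013 (without WT 2) and 0.055. Of 111 named genes called, 66 were called under every alternative and 88 under every one with all libraries. Stat5b, Jak3, Ezh2 and Hk2, not called, passed under some. Deviations of same-numbered lin28Tg and WT libraries correlated at -0.246, -0.257 and 0.056, so the numbers did not pair the groups compared. Same-numbered let-7Tg and WT libraries, however, correlated at 0.24, 0.549 and 0.434. The let-7Tg libraries entered the spread, the filter and the scaling. With the replicate block 1075 genes were called (821 higher, 254 lower), with 194 list members. With this block 1475 genes differed against naive cells and 1541 against day 5. Changes of level below the filter of 10 reads were not detectable at these depths. The causes of these shifts were not tested.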
